A study of Mus musculus with 2 samples.

Results

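Vcam1, Icam1, Icam2, Sele and Selp encode the vascular adhesion receptors and selectins that slow, hold and pass leukocytes at the vessel wall. All 5 genes were chosen by name, out of 14714 genes in the deposited count table, and each was found there. Their UMIs (unique molecular identifiers, 1 per captured RNA molecule) were added up in each deposited cluster of each library and are given per 1000000 UMIs of those cells (CPM). The cells came from enzymatically digested aortas of mice on a western diet for 12 weeks. The double knockout library (EC-iDKO_Apoe_KO) was made from mice with an inducible endothelial double knockout on an Apoe-/- background, and the Apoe_KO library from Apoe-/- mice without it. Both groups thus lack Apoe, which clears lipoprotein remnants and whose loss leads to atherosclerosis. From knowledge of the line, the deleted genes are the endocytic adaptors Epn1 and Epn2. Not given in the sources used here are the driver of the deletion, the age of the mice and the number pooled. CD31 beads are part of the protocol text, although the label reads all cells.

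Selectins act first in leukocyte capture. E-selectin (Sele) is made anew after cytokine stimulation, whereas P-selectin (Selp) is stored in Weibel-Palade bodies of endothelial cells and in platelets. Firm adhesion follows when leukocyte integrins bind the immunoglobulin-family receptors: VLA-4 binds VCAM-1, and LFA-1 binds ICAM-1 and ICAM-2. ICAM-2 is present on resting endothelium, and VCAM-1 is also made by smooth muscle and stromal cells of plaques. NF-kB, the transcription factor downstream of TNF and IL-1 receptors, drives Vcam1, Icam1 and Sele.

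The promoter letters are shown because Vcam1, Icam1 and Sele among the members are known targets of NF-kB. On GRCm38.p6 the 250 bases before the RefSeq start were searched on both strands for GGNNNTTCC, an NF-kB core, and for TATAAA, the TATA box; no matches of one overlap the other. Capitals mark the matches. RefSeq promoters were matched for 3 of the 5 members, and those of Vcam1 and Icam2 are not printed.

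Icam1, chr9:21015690-21015939, plus strand: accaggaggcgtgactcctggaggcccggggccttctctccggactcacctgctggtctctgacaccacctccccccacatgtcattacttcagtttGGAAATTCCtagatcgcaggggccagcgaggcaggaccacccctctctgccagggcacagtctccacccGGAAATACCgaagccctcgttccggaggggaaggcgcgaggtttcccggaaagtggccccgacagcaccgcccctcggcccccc

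Sele, chr1:164047984-164048233, plus strand: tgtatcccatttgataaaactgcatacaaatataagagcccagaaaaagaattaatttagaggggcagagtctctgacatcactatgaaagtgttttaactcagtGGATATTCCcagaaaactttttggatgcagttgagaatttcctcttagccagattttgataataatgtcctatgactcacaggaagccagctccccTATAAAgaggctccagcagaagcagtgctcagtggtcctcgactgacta

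Selp, chr1:164115014-164115263, plus strand: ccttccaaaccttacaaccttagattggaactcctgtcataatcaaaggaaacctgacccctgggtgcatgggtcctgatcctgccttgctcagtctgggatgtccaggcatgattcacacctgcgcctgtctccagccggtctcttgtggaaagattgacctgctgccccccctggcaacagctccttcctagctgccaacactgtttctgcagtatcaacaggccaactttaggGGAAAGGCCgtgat

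Icam1 held the core at 153 to 145 bases before the start, as GGAAATTCC, and on the other strand at 84 to 76 bases. Sele held it at 145 to 137 bases, as GGATATTCC, with TATAAA at 49 to 44 bases. Selp held 1 match on the other strand at 14 to 6 bases. Of 32851 mouse promoters of this length, 15.7% hold the core and 12.4% the TATA box. A match of these letters is a description and not a measured site.

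In GENCODE on GRCm38 (mm10), Vcam1 lies on chromosome 3 from 116109949 to 116129688 on the minus strand. Icam1 lies on chromosome 9 from 21015985 to 21028817, plus strand, and Icam2 on chromosome 11 from 106377656 to 106388075, minus strand. The selectin genes are neighbours on the plus strand of chromosome 1, Sele from 164048234 to 164057677 and Selp from 164115264 to 164150026. No other gene overlaps a member on its strand. Genes on the opposite strand overlap Vcam1, Icam1 and Selp, and whether the counts used strand was not given in the sources used here.

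There was 1 library per genotype, so nothing was tested and every comparison describes these 2 libraries. All intervals are at the 95% level and cover counting error only. A rule of size took the place of a test: a gene was called where its CPM differed by 1.5-fold or more and the whole interval of the ratio lay on one side of 1. The gene needed 20 UMIs over both libraries, and the population 50 cells in each. The double knockout library held 5489 cells, 6853185 UMIs and a median of 769 UMIs per cell. The Apoe_KO library held 2428 cells, 13304762 UMIs and a median of 3770. The libraries shared 5 barcode sequences.

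The endothelial label was checked against its markers. Cluster 9, deposited mainly as EC, had all 10 endothelial markers in the double knockout and 9 of 10 in Apoe_KO, with Kdr at 0. The markers summed to 4131 and 2405 CPM, beside smooth muscle markers at 28573 and 29344 CPM. Cluster 19, also EC, had 10 and 8 of them, at 5149 and 2624 CPM. Clusters 7 and 8 are deposited mainly as modEC, yet the endothelial markers summed there to 122 and 166 CPM in the double knockout and to 106 and 70.9 CPM in Apoe_KO. Cdh5, the endothelial cadherin, had 0 UMIs in cluster 7 of both libraries and 1 UMI in cluster 8 of each. The smooth muscle markers summed to 32787 and 27960 CPM in cluster 7. In cluster 8 the modulated smooth muscle markers summed to 15191 CPM in the double knockout and 29402 CPM in Apoe_KO. Those clusters are called by number below.

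The members fell into 2 patterns across the aortic clusters. Vcam1 and Icam1 were found both in endothelial cells and in clusters 7 and 8, whereas Icam2 and Selp were concentrated in endothelial clusters 9 and 19 of the double knockout. Sele was scarce, with 43 UMIs in the double knockout and 38 in Apoe_KO.

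Vcam1 was highest in cluster 8 in both libraries, with 614 UMIs in 148 double knockout cells and 3329 UMIs in 184 Apoe_KO cells. These are 2998 CPM (2766 to 3245) and 2165 CPM (2092 to 2240). In the double knockout, cluster 19 followed at 2191 CPM, cluster 7 at 1508 CPM and clusters 10 and 9 at 693 and 679 CPM. The intervals separated neighbours in that order except clusters 10 and 9. In Apoe_KO, cluster 7 followed at 1222 CPM, cluster 19 at 885 CPM and clusters 14 and 9 at 325 and 324 CPM. There, cluster 7 was not separated from cluster 19, nor cluster 14 from cluster 9. The 9 Apoe_KO cells of cluster 19 held 28 Vcam1 UMIs, 24 of them in 1 cell.

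Icam1 was highest in cluster 19 of the double knockout, where 67 cells held 280 UMIs or 2715 CPM (2406 to 3052). This was 6.82-fold above the next cluster (3.84 to 13.4), and clusters 20, 9, 18 and 8 came next at 398, 389, 363 and 356 CPM, with no neighbours among them separated. In Apoe_KO the 9 cells of cluster 19 held 14 UMIs, 443 CPM (242 to 743). Clusters 18, 8 and 9 followed at 254, 214 and 180 CPM, with no neighbours separated.

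Icam2 was highest in the endothelial clusters. In the double knockout it reached 271 CPM in cluster 19, which was not separated from the 252 CPM of cluster 9. In Apoe_KO cluster 9 led at 177 CPM, not separated from cluster 19 at 94.8 CPM, from 3 UMIs. In the SMC class it had 9 UMIs in 4407 double knockout cells and 12 UMIs in 1536 Apoe_KO cells, 1.61 and 1.39 CPM.

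The selectins were ordered differently in the 2 libraries. In the double knockout, Selp reached 141 CPM in cluster 9, not separated from the 136 CPM of cluster 19, and Sele was highest in cluster 19. In Apoe_KO, Selp reached 474 CPM in the 9 cells of cluster 19, 103 CPM in cluster 9 and 40.3 CPM in cluster 8, all 3 separated, with 14 of the 15 UMIs of cluster 19 in 1 cell. Apoe_KO Sele stood at 94.8 CPM in cluster 19, from 3 UMIs, and was not separated from cluster 9 at 40.5 CPM, where 1 cell held all 11 UMIs. Cluster 8 followed at 13.7 CPM. The order of the Apoe_KO selectin levels thus rests on single cells.

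**Figure D1:**
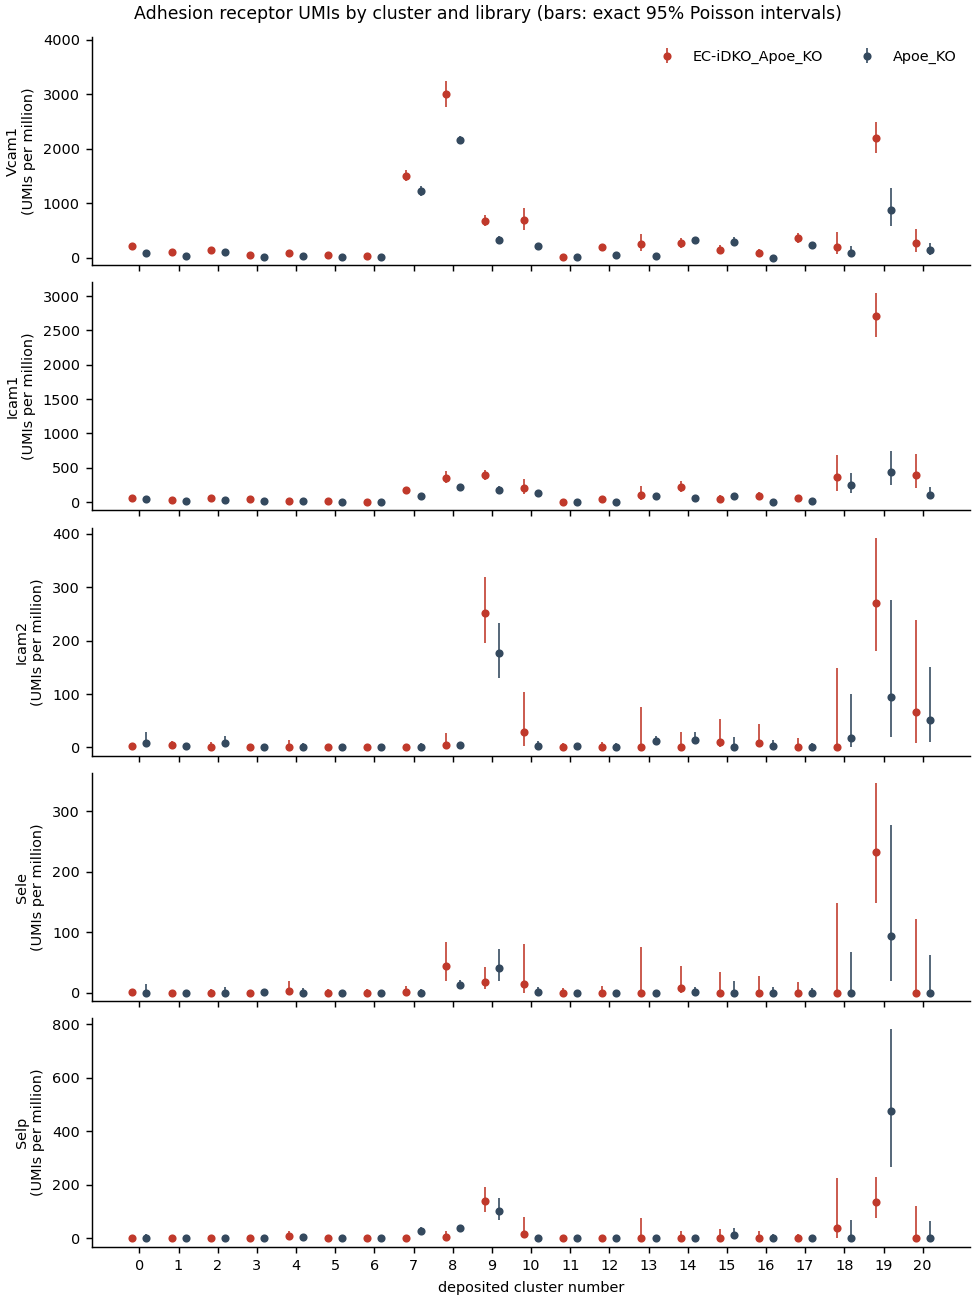
Each panel plots 1 receptor gene in CPM (linear axis) for the 21 deposited clusters on the horizontal axis, with the double knockout in red left of Apoe_KO in dark blue and exact 95% Poisson intervals as bars. Vcam1 peaks in cluster 8 in both libraries, and Icam1 peaks in cluster 19 of the double knockout at 2715 CPM.

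The 2 libraries drew their receptor UMIs from different cells. Of all Vcam1 UMIs, cluster 8 gave 24.5% in the double knockout and 66.6% in Apoe_KO, and cluster 7 gave 29.9% and 15.9%. Of all Icam1 UMIs, cluster 19 gave 35.4% and 1.84%, and cluster 8 gave 9.24% and 43.2%. For Selp, clusters 9 and 19 gave 64.4% and 23.7% in the double knockout, against 21.5% and 11.5% in Apoe_KO, where cluster 8 gave 47.7%. Cluster 19 made up 1.22% of the double knockout cells and 0.371% of the Apoe_KO cells, and cluster 8 made up 2.70% and 7.58%.

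**Figure D2:**
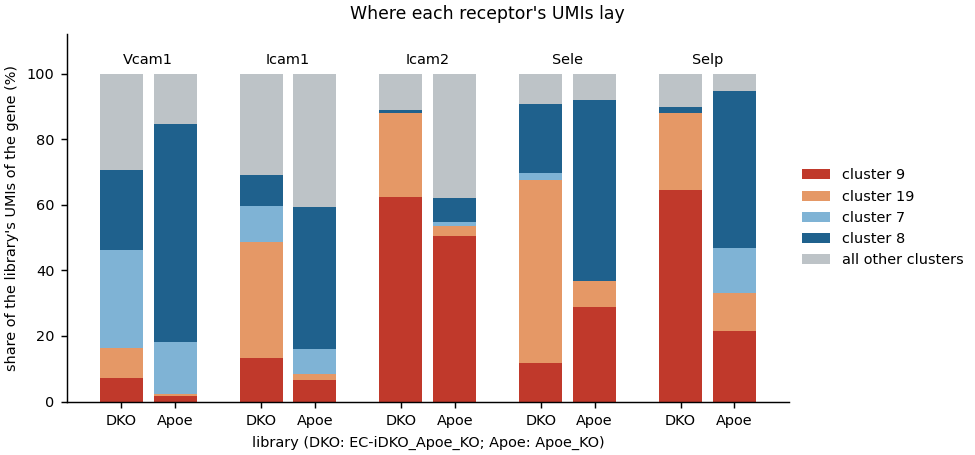
Stacked bars give the share of each library's UMIs of a gene, in percent, that lay in clusters 9, 19, 7, 8 and all others, with the double knockout (DKO) left of Apoe_KO (Apoe) for each gene. Cluster 8 holds 66.6% of the Apoe_KO Vcam1 UMIs and 24.5% of those of the double knockout.

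Summed over whole libraries, Icam1, Icam2 and Sele were higher in the double knockout, while Vcam1 and Selp met no rule. Of 13257 genes measured, 9.53% were called higher and 13.1% lower in this comparison. Icam1 had 790 UMIs in the double knockout and 761 in Apoe_KO, 115 and 57.2 CPM, a ratio of 2.02 (1.82 to 2.23). Icam2 had 109 and 95 UMIs, a ratio of 2.23 (1.68 to 2.96), which was 1.14 with cells thinned to 1000 UMIs and then no longer met the rule. Sele had 43 and 38 UMIs, a ratio of 2.20 (1.39 to 3.49), and 3.78 as a mean over cells. Vcam1 had 2508 and 5002 UMIs, 366 and 376 CPM, a ratio of 0.973 (0.927 to 1.02). Its mean over cells, in which a deep cell weighs no more than a shallow one, gave a ratio of 1.67, and thinned cells gave 1.47. Selp had 59 and 130 UMIs, a ratio of 0.881 (0.636 to 1.21), which turned to 1.44 (0.617 to 3.40) in thinned cells and to 1.12 as a mean over cells. These sums mix cell types whose shares differ between the libraries.

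In the endothelial cells of cluster 9, Vcam1 and Icam1 were higher in the double knockout, and Icam2 and Selp were not called. The comparison took 310 double knockout and 98 Apoe_KO cells, with 269700 and 271879 UMIs in all. Of 4226 genes measured, 7.1% were called higher and 8.97% lower. Of the members, 4 were measured, 2 of them higher and 0 lower.

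Vcam1, the integrin VLA-4 receptor, had 183 UMIs in the double knockout and 88 in Apoe_KO, 679 CPM (584 to 784) and 324 CPM (260 to 399). The ratio was 2.10 (1.62 to 2.74). It was seen in 104 of 310 double knockout cells and 37 of 98 Apoe_KO cells. No single cell set this ratio: without the cell with most Vcam1 UMIs in each library it was 2.13 (1.61 to 2.84). The sum of the endothelial markers, 4131 CPM in the double knockout and 2405 CPM in Apoe_KO, differed in the same direction. Pecam1 made up much of it, at 2169 and 1206 CPM. Tek was close, at 185 and 173 CPM, and only Cdh5 (167 and 184 CPM) and Emcn (96.4 and 110 CPM) were lower. The part of these markers in the ratio was not tested.

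Icam1, the receptor of LFA-1, had 105 and 49 UMIs, 389 CPM (318 to 471) and 180 CPM (133 to 238), a ratio of 2.16 (1.52 to 3.10). Of the 105 double knockout UMIs, 41 (39.0%) lay in 1 cell. Without the cell with most Icam1 UMIs in each library, 64 and 40 UMIs were left, and the ratio was 1.66 (1.10 to 2.53). The mean over cells gave 1.41, and cells of at least 1000 UMIs and under 10% mitochondrial UMIs gave 4.34. Thinned cells gave 1.74 (0.839 to 3.65), which no longer met the rule. The size of the Icam1 ratio thus rests on few cells, whereas the Vcam1 ratio in these settings lay between 1.70 and 2.23.

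Icam2, present on resting endothelium, had 68 and 48 UMIs, 252 CPM (196 to 320) and 177 CPM (130 to 234), and the intervals overlap. The ratio was 1.43 (0.973 to 2.11), and 1.62 (1.07 to 2.46), which met the rule, without the cell with most Icam2 UMIs in each library. Selp had 38 UMIs in 23 double knockout cells and 28 UMIs in 12 Apoe_KO cells, 141 and 103 CPM, a ratio of 1.37 (0.818 to 2.31). In cells of at least 1000 UMIs and under 10% mitochondrial UMIs it was 2.87 (1.57 to 5.25), which met the rule, and in thinned cells it was 2.58 (0.850 to 8.64), which did not. Sele had 5 UMIs in 3 double knockout cells, and 11 UMIs in Apoe_KO that all lay in 1 cell, too few for a ratio.

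In each library, the cluster 9 cell with most Vcam1 UMIs held UMIs of all 5 members. Both cells were far deeper than the cluster 9 medians of 707.5 UMIs in the double knockout and 2132.5 in Apoe_KO. A deeper cell shows more genes. In the double knockout, a cell of 9526 UMIs held 19 of Vcam1, 41 of Icam1, 3 of Icam2, 3 of Sele and 9 of Selp, with 37 of the endothelial marker Pecam1 and 31 of the chemokine Cxcl1. In Apoe_KO, a cell of 21998 UMIs held 14, 5, 5, 11 and 11, with 37 of Pecam1, 20 of Cdh5 and 0 of Cxcl1. The macrophage gene Lyz2 was at 0 in both cells. These cells and the genes named beside them were chosen after their values were seen.

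Other transcripts also differed between the cluster 9 cells. The 10 macrophage markers summed to 18.5 CPM in the double knockout, with 3 detected and C1qa, Csf1r and Adgre1 among those at 0, and to 2159 CPM in Apoe_KO, with 9 detected. The 5 pan-leukocyte markers summed to 0 and 177 CPM, with Ptprc at 0 in the double knockout. Erythroid markers summed to 675 CPM in the double knockout and 0 in Apoe_KO. Whether these transcripts have a part in the receptor ratios was not tested.

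At equal depth the shares of cluster 9 cells with a receptor UMI had overlapping intervals for the 4 members measured there. Each cell was thinned to 1000 UMIs, which kept 62 double knockout cells and 96 Apoe_KO cells and left out 248 and 2. The kept cells had medians of 1366 and 2160 UMIs before thinning. Vcam1 was seen in 35.5% (23.7 to 48.7) of the double knockout cells and 24.0% (15.8 to 33.7) of the Apoe_KO cells. Icam1 was seen in 20.97% (11.7 to 33.2) and 13.5% (7.41 to 22.0), Icam2 in 12.9% and 11.5%, and Selp in 12.9% and 6.25%. Unthinned, the Vcam1 shares were 33.5% and 37.8%, the Icam1 shares 15.8% and 33.7%, the Icam2 shares 17.4% and 22.4%, and the Selp shares 7.42% and 12.2%.

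Smooth muscle cells served as background for the endothelial members. Thinned SMC cells, with medians of 2038 and 5327 UMIs, showed Icam2 in 0 of 1523 double knockout cells, which allows a share of up to 0.197%, and in 0.208% of 1440 Apoe_KO cells. Selp was seen there in 0.0657% and 0.0694%. The cluster 9 shares lay above those values in both libraries.

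**Figure D3:**
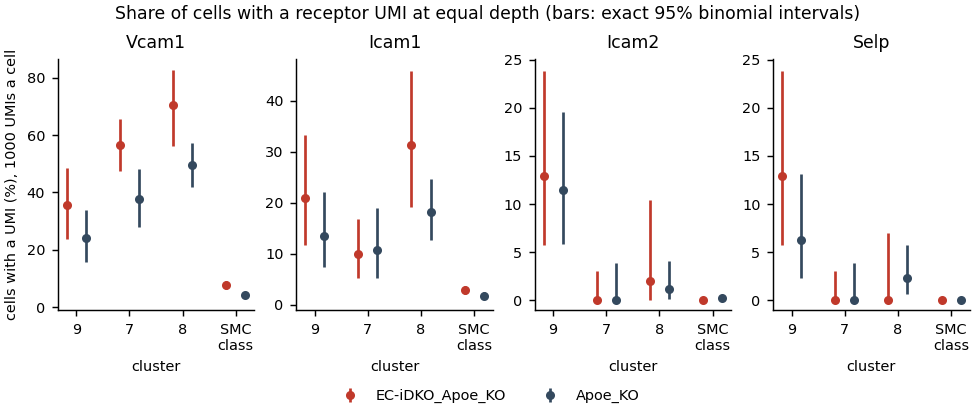
Points give the share of cells, in percent, with at least 1 UMI of the gene after thinning each cell to 1000 UMIs, in clusters 9, 7 and 8 and the SMC class, with the double knockout left of Apoe_KO and exact 95% binomial intervals as bars (panels have their own linear scales). In cluster 8 the Vcam1 share is 70.6% in the double knockout (51 of 148 cells kept) and 49.4% in Apoe_KO (176 of 184 cells kept).

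In cluster 19 of the double knockout, Vcam1 was seen in 57 and Icam1 in 53 of 67 cells. In 42 thinned double knockout cells, with a median of 1555 UMIs before thinning, Vcam1 was seen in 95.2% (83.8 to 99.4), as was Icam1. Icam2 was seen in 26.2%, Sele in 16.7% and Selp in 7.14%. Of the 67 cells unthinned, 53 held Icam1, and 92.5% of those held Vcam1, against 57.1% of the 14 cells without Icam1. The cells with Icam1 were deeper, with medians of 1430 and 710.5 UMIs, and a deeper cell shows more genes.

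Sele was concentrated in this cluster in the double knockout, with 24 of its 43 UMIs, spread over 14 cells with at most 4 in 1 cell. The level was 233 CPM (149 to 346), 5.30-fold above cluster 8 (2.38 to 12.9). The 9 Apoe_KO cells held 3 UMIs of Sele. Selp had 14 UMIs in the double knockout and 15 in Apoe_KO, where 14 lay in 1 cell. With 9 Apoe_KO cells no ratio was taken in cluster 19. The 10 macrophage markers were at 0 in the double knockout cells and summed to 3003 CPM in the Apoe_KO cells.

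In the deposited EC class, which joins clusters 9, 19 and 20 and 1 Apoe_KO cell of cluster 15, the Vcam1, Icam1 and Icam2 ratios were larger. The class held 380 double knockout and 131 Apoe_KO cells, and 10.6% of 5350 genes measured were called higher and 10.7% lower in it. Vcam1 stood at 1060 and 346 CPM, a ratio of 3.06 (2.49 to 3.77), and Icam1 at 1033 and 193 CPM, a ratio of 5.36 (4.14 to 7.03). Icam2 had a ratio of 1.67 (1.19 to 2.38) and met the rule. Selp had a ratio of 1.10 (0.722 to 1.70), and Sele had 29 and 14 UMIs, a ratio of 1.93 (0.987 to 3.95); neither was called. Cluster 19 gave 280 of the 397 double knockout Icam1 UMIs and 14 of the 69 in Apoe_KO, and the clusters' shares of the class differ between the libraries. Cluster 20 was unlike between libraries: its T cell markers summed to 0 CPM in the double knockout and 3275 CPM in Apoe_KO.

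In cluster 8 of the wall, Icam1 and Sele were called higher, Selp lower and Vcam1 not called. Of 7943 genes measured there, 7.98% were called higher and 5.16% lower. Vcam1 had a ratio of 1.38 (1.27 to 1.51), with 99 of 614 UMIs in the top double knockout cell and 464 of 3329 in the top Apoe_KO cell. It met the rule in cells of at least 1000 UMIs and under 10% mitochondrial UMIs, at 1.64 (1.49 to 1.81), and in thinned cells, at 1.97 (1.58 to 2.44). Icam1 had 73 and 329 UMIs, 356 and 214 CPM, a ratio of 1.67 (1.27 to 2.15), and 1.49 (1.11 to 1.98) without the top cell of each library, which no longer met the rule.

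Selectin UMIs were present in cluster 8 although Cdh5 was nearly absent. Sele had 9 UMIs in 4 double knockout cells, 6 of them in 1 cell, and 21 UMIs in 7 Apoe_KO cells. Its ratio was 3.22 (1.30 to 7.33), but 1.77 (0.323 to 6.44) without the top cells, where the call was lost. In thinned cells, with 1 and 4 UMIs, the ratio turned to 0.863 (0.0175 to 8.72). The double knockout cell with 6 Sele UMIs also held 47 of Vcam1 and 14 of Icam1, and 0 of Pecam1 and Cdh5. Selp had 1 UMI in the double knockout and 62 in Apoe_KO, 4.88 and 40.3 CPM, a ratio of 0.121 (0.00302 to 0.700). The mean over cells gave a ratio of 0.354. Without the top cell of each library it had 0 and 45 UMIs and was still called lower.

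The 25 Apoe_KO cells of cluster 8 with Selp were deep cells. Their median was 12674 UMIs, against 4190 in the 159 cells without it. Vcam1 was seen in 96.0% of them and in 74.8% of the cells without Selp, and Pecam1 in 52.0% and 22.0%. Cdh5 was seen in 0 of the 25, and the proteoglycan gene Lum in every cell of both kinds. After thinning, 4 of 176 Apoe_KO cells and 0 of 51 double knockout cells held Selp, the last allowing a share of up to 5.88%, so the difference in shares was not detectable at this depth. Beside the modulated smooth muscle markers given above, the chondrocyte-like markers of cluster 8 summed to 234 CPM in the double knockout and 7187 CPM in Apoe_KO, and their part in the Selp difference was not tested.

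In cluster 7, Icam1 was called higher and Vcam1 was not. Of 6443 genes measured there, 6.72% were called higher and 7.19% lower. Icam1 had 87 UMIs in 395 double knockout cells and 60 UMIs in 102 Apoe_KO cells, 175 and 92.1 CPM, a ratio of 1.90 (1.35 to 2.68). In thinned cells the Icam1 ratio was 0.986 (0.416 to 2.40), which turned the direction. Vcam1 stood at 1508 and 1222 CPM, a ratio of 1.23 (1.12 to 1.37), and met the rule in thinned cells at 1.62 (1.25 to 2.12). At equal depth 56.7% of 120 double knockout cells and 37.6% of 93 Apoe_KO cells held Vcam1. Thinning kept only those of the 395 and 102 cells, so the shares describe unequal parts of the cluster. Selp had 0 UMIs in the double knockout and 18 in 3 Apoe_KO cells. The cells of cluster 7 also differed in other markers: cycling genes summed to 56.2 CPM in the double knockout and 437 CPM in Apoe_KO, fibroblast genes to 636 and 1229 CPM, and Lum alone stood at 50.2 and 628 CPM. Their part in the ratios was not tested.

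Over all clusters, those above included, Vcam1 and Icam1 were more often called higher than lower in the double knockout. Of 16 clusters in which Vcam1 was measured, it was called higher in 9 and lower in 1. Of the 9, clusters 0, 1, 3, 4, 5 and 12 are deposited mainly as SMC and hold low levels, set beside background shares further on. Of 12 clusters in which Icam1 was measured, it was called higher in 7 and lower in 0. In cluster 10, deposited mainly as modEC, Vcam1 had 48 and 129 UMIs, a ratio of 3.23 (2.27 to 4.54), where 7.44% of genes were called higher and 4.52% lower. In cluster 13, with macrophage markers, it had 12 and 35 UMIs, a ratio of 6.07 (2.87 to 12.0), where 8.33% were higher and 5.62% lower. The smooth muscle markers of cluster 13 summed to 34659 CPM in the double knockout and 12085 CPM in Apoe_KO, and the macrophage markers to 4097 and 13626 CPM; their part in the Vcam1 ratio was not tested. In cluster 14, deposited mainly as fibroblast, Vcam1 was not called at 0.822 (0.552 to 1.19), while Icam1 had 27 and 30 UMIs, a ratio of 3.81 (2.18 to 6.63), where 6.56% were higher and 5.82% lower. In cluster 15 Vcam1 was called lower at 0.472 (0.248 to 0.847), where 14.3% of genes were higher and 22.7% lower.

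Most of the remaining clusters are smooth muscle clusters with low levels of both genes. Cluster 17, deposited as SMC, held more Vcam1 than the other clusters of this paragraph, at 357 CPM in the double knockout and 238 CPM in Apoe_KO. Vcam1 was called higher in cluster 0 at 2.43, where 6.45% of genes were higher and 7.72% lower, and in cluster 1 at 3.75, where 7.19% were higher and 8.35% lower. It was called higher in cluster 3 at 3.19, against 9.71% of genes higher and 6.06% lower, and in cluster 4 at 2.75, against 6.55% and 7.95%. In cluster 5 it was called higher at 1.85, against 7.93% and 5.41%, and in cluster 12 at 3.88, against 7.88% and 5.21%. Vcam1 was not called in cluster 2 at 1.43, where 8.29% of genes were higher and 8.81% lower, in cluster 6 at 1.65, against 7.15% and 5.83%, or in cluster 17 at 1.498, against 8.41% and 6.09%. Icam1 was called higher in clusters 2, 3 and 17, at 2.40, 2.07 and 2.84, and was not called in clusters 0 and 1, at 1.47 and 2.19. All clusters of a genotype share 1 library, so calls in several clusters are not independent of each other.

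**Figure D4:**
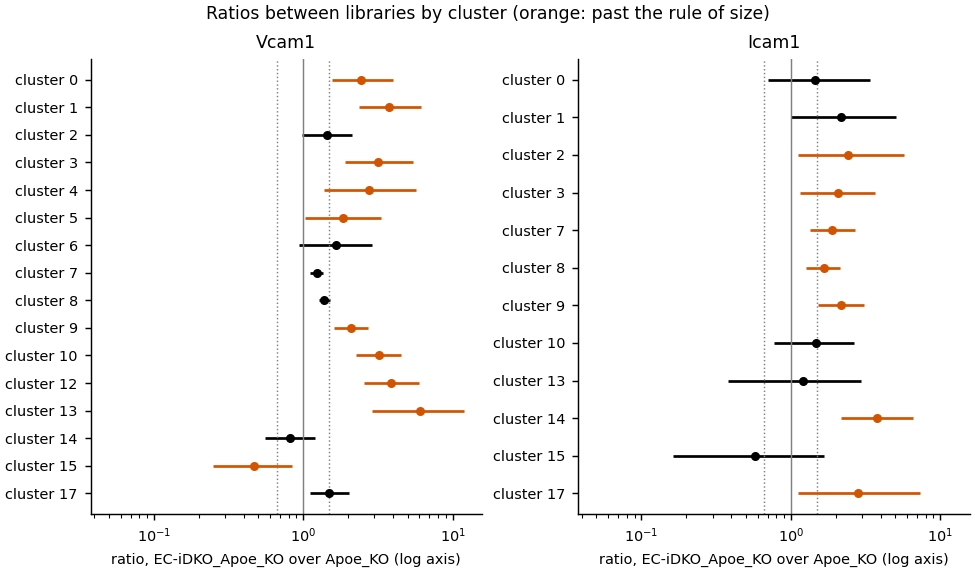
Ratios of CPM, double knockout over Apoe_KO, are plotted on a log axis for each cluster (vertical axis) in which Vcam1 (left) or Icam1 (right) had 20 UMIs or more, with exact 95% intervals as bars, a solid line at 1 and dotted lines at a 1.5-fold difference. Orange points meet the rule of size: 9 clusters higher and 1 lower for Vcam1, and 7 higher for Icam1.

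The SMC class as a whole held low levels of both genes. Of 12000 genes measured in the SMC class, 10.5% were called higher and 7.52% lower. Vcam1 had 663 UMIs in the double knockout and 371 in Apoe_KO, 119 and 43.0 CPM, a ratio of 2.76 (2.43 to 3.15). Icam1 stood at 33.7 and 12.5 CPM, a ratio of 2.69 (2.11 to 3.44), and 1.79 (1.11 to 2.94) in thinned cells. The class drew on different clusters in each library: cluster 0 held 1099 of its double knockout cells and 94 of its Apoe_KO cells, and cluster 7 held 86 and 10. Thinned SMC cells showed Vcam1 in 7.68% and 4.17%. The Apoe_KO cells of cluster 20, which carry T cell markers and should lack Vcam1, showed it in 8.33% of 24 cells with a median of 2201 UMIs, and Apoe_KO cluster 13, with all 10 macrophage markers, showed it in 4.32% of 139 cells with a median of 4783 UMIs. The Apoe_KO smooth muscle share lay below both. In double knockout cluster 13, with 8 macrophage markers and the smooth muscle markers given above, 3 of 15 cells held Vcam1 (4.33% to 48.1%). So wide an interval, which holds the smooth muscle share of 7.68%, cannot tell these shares apart. No expression of Vcam1 in smooth muscle is read from these pooled shares, and the part of free RNA in the ratio was not tested. The pooled shares do not describe cluster 17, whose 51 Apoe_KO cells, all SMC, held 117 of the 371 Vcam1 UMIs. It stood at 357 CPM in the double knockout and 238 CPM in Apoe_KO. Cluster 13 stood at 246 and 40.5 CPM, and cluster 20 at 265 and 137 CPM. The Apoe_KO cluster 9 share of 24.0% (15.8 to 33.7) lay above the interval of cluster 13 (1.60 to 9.16) and overlapped that of cluster 20 (1.03 to 27.0). The double knockout cluster 9 share of 35.5% (23.7 to 48.7) overlapped that of its cluster 13, where 15 cells are too few to tell the shares apart.

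Genes whose levels followed the members across 20 clusters, without cluster 19, were found by Pearson r of log2(CPM + 10) averaged over the libraries, among 8292 genes, as a description. The points share libraries and depth. Nearest to Vcam1 were Timp1 (r = 0.89), the metallothionein Mt1 (0.85), Lum (0.84), Cd34 (0.84) and Serpina3n (0.84), and Timp1, Lum and Serpina3n also peaked in cluster 8. Nearest to Icam1 were Rara (0.89), Rbms1 (0.88), Tmod3 (0.88), 9930111J21Rik2 (0.87) and Bhlhe40 (0.86). Nearest to Icam2 were the endothelial genes Egfl7 (0.95), Cdh5 (0.93), Ramp2 (0.92) and Pecam1 (0.92), with Stmn2 (0.93). Nearest to Selp were the endothelin gene Edn1 (0.89), the tight junction gene Cldn5 (0.86), Stmn2 (0.83), Mmrn2 (0.83) and Epas1 (0.83). Among the members, r was 0.79 between Vcam1 and Icam1, 0.71 between Icam2 and Selp and 0.32 between Vcam1 and Icam2. With Spearman's rho, 0 of the 5 nearest genes of Icam2 and 0 of those of Selp were again among the nearest 5. Both with Spearman's rho and with log2(CPM + 1), the nearest 5 were largely kept for 1 member and not for 3.

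The wider adhesion cascade went both ways in cluster 9. Over 9 lists with 107 genes, 99 were in the table and 64 measured, of which 13 (20.3%) were higher and 11 (17.2%) lower in the double knockout, against 7.1% and 8.97% of all genes measured in cluster 9. The same shares stand behind each list's counts below, and nothing particular to a list is read from them. Their median log2 ratio was 0.17, against -0.0012 over the 4226 genes measured. The lists were chosen with earlier results of these data known.

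Of 11 junctional genes that leukocytes pass, 3 were higher and 1 lower. Pecam1, a homophilic receptor of transmigration, stood at 2169 and 1206 CPM, a ratio of 1.80 (1.57 to 2.06). The junctional molecule Jam2 had a ratio of 2.49 (1.33 to 4.88) and the tetraspanin Cd151 one of 1.64 (1.08 to 2.53), while Cd99l2 had 11 and 25 UMIs, a ratio of 0.444 (0.197 to 0.935). Of 5 other endothelial adhesion genes, 2 were higher: Cd34, a sialomucin that can carry selectin ligands, with 42 and 17 UMIs, and Vwf, the platelet-binding Weibel-Palade body protein, with 92 and 39 UMIs. Of 10 cytoskeletal anchors that tie receptors to actin, 0 were higher and 4 lower. Actn1 and Actn4, actin crosslinkers that bind the ICAM-1 tail, had ratios of 0.573 and 0.660, vinculin (Vcl) 0.616 and filamin A (Flna) 0.591.

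The inflammatory input and its targets were mixed. Of 9 cytokine receptor and NF-kB pathway genes, 2 were higher, the interferon gamma receptor Ifngr1 at 2.27 (1.43 to 3.68) and the IL-6 signal transducer Il6st at 2.06 (1.43 to 3.01), and 1 was lower, the kinase Ikbkb, with 7 and 19 UMIs. Of 11 NF-kB targets, 3 were higher and 3 lower. Irf1 had a ratio of 2.32 (1.49 to 3.69) and Ier3 one of 2.77 (2.14 to 3.605). Ccl2, a monocyte chemokine, had 0 UMIs in the double knockout and 34 in Apoe_KO, at least 11.2-fold lower against a floor of 3 UMIs per library, and Tnfaip2 had 5 and 29. Named after their values were seen, the inhibitor Nfkbia was higher at 1.73 (1.46 to 2.06), and Cxcl1 was lower with 44 and 77 UMIs, 31 of the 44 in the single cell described above. The macrophage markers of Apoe_KO cluster 9, at 2159 CPM, differ the same way as these lower genes, and their part was not tested.

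Of 6 genes listed as regulators of the endothelial state, 1 was higher and 0 lower, and no direction of activation is read from it. This was the endothelial factor Gata2, with 27 and 8 UMIs, a ratio of 3.40 (1.50 to 8.67). Of 6 counter-receptor genes, the sialomucin Podxl was higher, with 33 and 14 UMIs, and the hyaluronan receptor Cd44 was lower, with 6 and 22. Of 4 shedding proteases, Adam10 was higher at 1.66 (1.12 to 2.49), and the membrane protease Mmp14 was lower, with 2 and 27 UMIs. Adam17, which sheds VCAM-1 and ICAM-1, had 15 and 16 UMIs. The 2 measured genes of selectin ligand glycosylation, Gcnt1 and B4galt1, were not called.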

How the data were processed

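Single-cell libraries were prepared from aortas with 10x 3' v2 chemistry, per the labels' protocols. The submitters' processing notes name Cell Ranger, Seurat and mm10. Tool versions, like the annotation, are not given in the sources used here. Deposited values were UMI counts, with no normalization; cluster numbers and class names are labels of another kind ("other") that the authors assigned, and the authors' mitochondrial ratio is a fraction. Of 10345 deposited entries, 2428 were identical second copies of an Apoe_KO barcode, so 7917 cells were kept. No doublets were removed. Python 3.11.15, numpy 2.4.6, scipy 1.17.1 and pandas 2.3.3 gave sums, exact Poisson, conditional binomial and Clopper-Pearson intervals. A count of 0 was set to a floor of 3 UMIs per library and population for a ratio, and the largest share a count of 0 allows was taken as 3 counts of the total. Simulated data served to test the calling of ratios. They held counting error only and no variation between cells, so they cannot show how often UMIs clumped in single cells are miscalled. Cells were thinned without replacement to 1000 UMIs. Members were always named. From each list up to 4 genes with the largest ratio in cluster 9, out of those with 20 UMIs, were named, and for members with 100 UMIs the 5 most alike of the genes with 200 UMIs, over clusters of 20 cells in each library. Members, lists and these rules were chosen with earlier results of these data known. Alternatives changed the cells, thinning, scaling, totals and filters.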

Additional observations from a re-analysis of the deposited data

Results flagged for a closer look

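Vcam1 was called lower in the double knockout in cluster 15 and higher in 9 other clusters, which flagged it as going both ways; the difference between clusters was not tested. In cluster 15 it had 15 UMIs in 80 double knockout cells and 55 UMIs in 80 Apoe_KO cells, 141 and 299 CPM, a ratio of 0.472 (0.248 to 0.847). In this cluster 37.0% of 2450 genes measured met the rule of size in either direction. Their median log2 ratio was -0.302, and the Vcam1 call was not put to centring on the median gene. The adipocyte markers summed there to 56472 CPM in the double knockout and 353 CPM in Apoe_KO, and their part in the Vcam1 ratio was not tested.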

How the results depend on the processing

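No paired analysis was possible because there was 1 library per genotype, so no library could be left out either. Of 18 receptor ratios, from the whole library, clusters 7, 8 and 9 and the SMC class, 11 met the rule of size. Of these, 9 kept their direction in every setting that gave a value. In every setting that gave an interval, 6 kept their call. The mean over cells has no interval and so no call. Without the top cell of each library, with cluster 9 held to its EC cells and with the SMC class without cluster 15 were chosen after seeing the data. In thinned cells the whole-library ratios were 1.47 for Vcam1, 2.27 for Icam1, 1.14 for Icam2 and 1.44 for Selp. Thinning also gave 2.58 for Selp in cluster 9, 1.97 for Vcam1 and 0.863 for Sele (1 and 4 UMIs) in cluster 8, 1.62 for Vcam1 and 0.986 for Icam1 in cluster 7, and 2.09 for Vcam1 and 1.79 for Icam1 in the SMC class; Selp in cluster 8 (0 and 4 UMIs) and Icam2 in the SMC class (0 and 3) gave no value. Cells of at least 1000 UMIs and under 10% mitochondrial UMIs gave 2.38 for Icam1 over the whole library, 4.34 for Icam1 and 2.87 for Selp in cluster 9, 1.64 for Vcam1 in cluster 8 and 2.06 for Vcam1 in the SMC class. Means over cells gave 1.67 for Vcam1 and 3.78 for Sele over the whole library, 1.41 for Icam1 in cluster 9, 1.55 for Vcam1 and 1.26 for Icam1 in cluster 8, and 1.79 for Vcam1 in cluster 7. The EC class in place of cluster 9 gave 3.06 for Vcam1 and 5.36 for Icam1, and the whole-library Vcam1 ratio was 1.03 without the top cells. With a filter of 100 UMIs, which left 814 genes in cluster 9, 7 list genes were higher and 5 lower, and thinning left 4 lower. The shares of all genes called in these settings are not given here, so nothing is read from these counts. Thinned to 500 UMIs, the double knockout shares in cluster 9 were 22.7% for Vcam1, 11% for Icam1 and 2.59% for Selp, and the Apoe_KO Icam2 share was 5.10%. Unthinned, the Apoe_KO shares were 37.8% for Vcam1, 33.7% for Icam1 and 22.4% for Icam2. Apart from these effects of depth by construction, the cause was not tested. Centring on the median gene, leaving mitochondrial, ribosomal protein and haemoglobin genes out of the total and counting both copies of a barcode changed no call among the 18 ratios. The calls in the other clusters were not put to these settings. Double knockout depth limits Sele, Selp and every thinned value.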
